A study of Homo sapiens with 12 samples.

Results

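The sirtuins SIRT1 to SIRT7 and the corepressors CTBP1 and CTBP2 were followed in K562 cells, a human chronic myelogenous leukaemia line, by RNA sequencing of 12 libraries. They were chosen by symbol, as proteins whose activity is tied to NAD+ or NADH, and all 9 were present among 17786 gene identifiers. All 9 also passed the filter on low counts, along with 13598 genes in all. Libraries came from untreated cells, from cells given 2 mM alpha-ketobutyrate (AKB) and from cells given 2 mM pyruvate, each for 24 h (n = 4 per group). All groups shared the same line and the same growth medium with serum and glutamine. The study names AKB and pyruvate as electron acceptors: lactate dehydrogenase can reduce either of these 2-oxo acids while turning NADH into NAD+. AKB carries an extra methylene group compared with pyruvate.

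Sirtuins remove acetyl or longer acyl groups from lysines and consume NAD+ in doing so, in contrast to the classical histone deacetylases, which use zinc. SIRT1, SIRT6 and SIRT7 act mainly in the nucleus, SIRT2 mainly in the cytosol, and SIRT3, SIRT4 and SIRT5 in mitochondria. CtBP proteins resemble NAD-dependent dehydrogenases, assemble upon binding NAD+ or NADH, and recruit histone deacetylases and demethylases to DNA-bound repressors. RNA levels report the abundance of these messages and not the activity of the enzymes.

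The stretch before the RefSeq start of SIRT1 is shown because SIRT1 was the member whose difference with AKB was called in the most alternative fits, with the E-box CACGTG, a site for MYC-type and MLXIPL-type factors, in capitals. It covers chr10:67884406-67884655 on the plus strand of GRCh38.p14.
SIRT1: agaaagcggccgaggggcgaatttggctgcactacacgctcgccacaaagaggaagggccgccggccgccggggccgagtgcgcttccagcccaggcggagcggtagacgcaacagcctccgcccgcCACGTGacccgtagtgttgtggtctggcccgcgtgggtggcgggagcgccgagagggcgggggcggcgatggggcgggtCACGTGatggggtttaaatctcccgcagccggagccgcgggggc
The E-boxes begin 123 and 44 bases before the start, and 4 matches to a GC box (CCCGCC on either strand) lie in the same window.

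SIRT5 and SIRT6 shared a different word, the palindrome GCGCATGCGC that NRF1 recognises, a factor for many genes of mitochondrial proteins. It is in capitals in 30 bases from each gene, at chr6:13574451-13574480 on the plus strand and chr19:4182655-4182684 on the minus strand.
SIRT5: ggtccgcggtGCGCATGCGCggcccggcct
SIRT6: tcagcaagagGCGCATGCGCcttgccgtgg
Over 35116 RefSeq windows of 250 bases, searched on both strands, 6.35% held the E-box and 1.03% held the NRF1-type word. Of the 8 genes with a window, which hold 17 windows among them, CTBP1 and SIRT1 held an E-box, and only SIRT5 and SIRT6 held the NRF1-type word. By window, the E-box was in 2 of the 17. The NRF1-type word was in 3 of the 17, including overlapping SIRT5 windows that share the same match. The GC box was in 10 of the 17 windows, against 42.5% of all windows. The cyclic AMP response element TGACGTCA was found in 1 of the 17 windows, against 1.65% of all windows. That window is for a RefSeq start of SIRT4 that lies before the gene start annotated in GENCODE. TGATGCAA, a word bound by C/EBP and ATF4 dimers, was in none of the 8 genes' windows and in 0.772% of all windows. A matched word is a description of the sequence and was not tested as a binding site.

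Library totals ran from 15353200 to 21301073 counts. Pyruvate replicates 3 and 4 stood apart from the other 10 libraries along the GC content of transcripts: their log2 levels rose by 0.337 and 0.363 per 10 percentage points of GC, against -0.151 to 0.00488 elsewhere. They were also the deepest libraries, with 19891231 and 21301073 counts. Differences were therefore also fitted with a smooth GC offset per library and without those replicates, and these values are given beside the unadjusted fit for many of the genes. All 14 erythroid markers were present, with HBG1 between 2347 and 3367 CPM (counts scaled to a common library size). Of the T cell markers CD3E was at most 0.122 CPM and CD3D ran from 1.95 to 3.37 CPM, and the epithelial marker KRT19 ran from 99.1 to 136 CPM. Serine and asparagine synthesis served as the reference response: PSAT1 fell from 206 ± 7.32 CPM to 104 ± 3.64 with AKB (adjusted p = 0.000378) and to 88.4 ± 10.8 with pyruvate (adjusted p = 3.41e-05, edgeR; SD, n = 4).

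CTBP1 was the most abundant of the 9 messages, and CTBP2 the least when scaled by its longest coding transcript. In CPM SIRT4 was the lowest, at 1.03 ± 0.254 against 1.91 ± 0.526 for CTBP2 in untreated cells (SD, n = 4). Per kilobase of the longest coding transcript, untreated levels were 26.5 CPM for CTBP1 (24.9 to 27.6), 20.0 for SIRT1 (18.3 to 21.3 over 4 libraries) and 19.3 ± 1.18 for SIRT7 (SD, n = 4). The nuclear deacetylases SIRT1 and SIRT7 had overlapping ranges on this scale, and every other pair of neighbours in the order was separated in the untreated libraries. SIRT2 followed at 12.8 ± 0.502 CPM per kilobase, then SIRT6 at 9.70 ± 1.59 and SIRT3 at 7.24 ± 0.637. SIRT5, the desuccinylase, was at 4.11 ± 0.191. SIRT4, a mitochondrial lipoamidase and ADP-ribosyltransferase, was at 0.849 ± 0.209 CPM per kilobase, and CTBP2 at 0.275 ± 0.0758. The order at the bottom depends on the transcript: over the principal CTBP2 transcript of 1918 bases its untreated mean was 0.995 CPM per kilobase, above SIRT4. CTBP1 exceeded CTBP2 in raw counts by 42.5 to 92.2 times across the 4 pyruvate libraries, and by 44.0 to 77.9 times in untreated ones. SIRT4 had 13 to 37 counts per library and CTBP2 had 25 to 49, so differences in these genes were measured with the least precision.

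**Figure D1:**
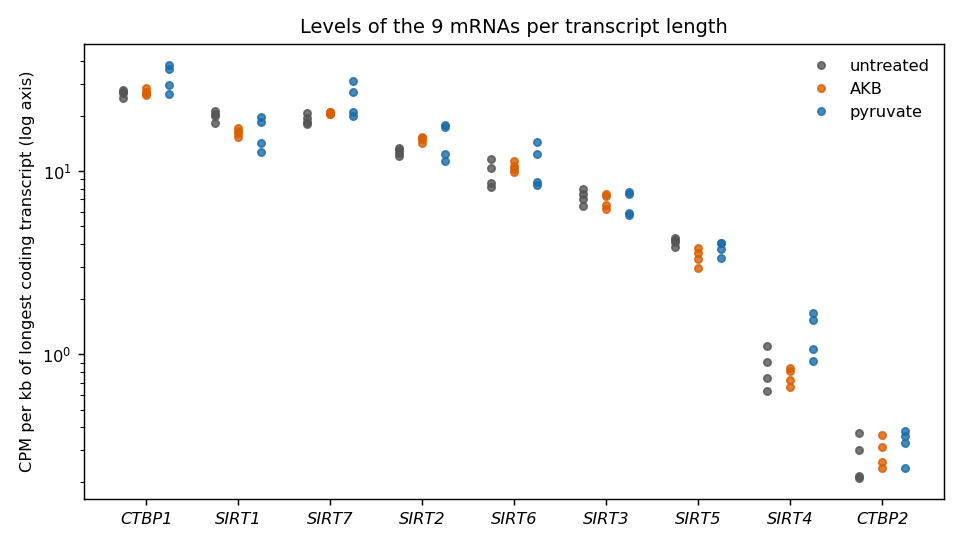
Level of each of the 9 messages in CPM per kilobase of the longest coding transcript (log axis), with a point for each of the 4 libraries of the untreated, AKB and pyruvate groups. Untreated means run from 26.5 for CTBP1 to 0.275 for CTBP2, and SIRT1 and SIRT7 lie close together in untreated cells.

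None of the 9 genes passed the test with AKB, with pyruvate or between the 2 acids in the fit to all 12 libraries (edgeR quasi-likelihood, Benjamini-Hochberg adjusted p below 0.05 over 13598 genes). Across all genes, 1.97% were called for AKB against untreated, 1.95% for pyruvate against untreated and 3.13% for AKB against pyruvate, so 0 of 9 is near the background. At an unadjusted p below 0.05 there were 2 members with AKB, 4 with pyruvate and 2 between the acids, where all genes gave 13.2%, 28.9% and 24.2%. DESeq2's Wald test on the same counts called 0, 2 and 0 members in these 3 comparisons, against 3.8%, 15.8% and 12.8% of all genes. limma-voom called 0 in each, against 1.9%, 1.62% and 3.1%. In the authors' deposited tables, 0 of 9 members were called for AKB, 0 of the 8 with an adjusted p for pyruvate and 0 of 9 between the acids, against 4.9%, 12% and 10% of the genes with an adjusted p there. The edgeR fit to all 12 libraries takes 1 spread per gene from all 3 groups, pyruvate replicates 3 and 4 included. With only the 8 AKB and untreated libraries, the SE with AKB went from 0.12 to 0.056 for SIRT1 and from 0.13 to 0.055 for SIRT2. For CTBP2 it was 0.24 in both. Whether replicates were separate cultures is not stated in the labels, and p-values then describe only how far these libraries spread, which may be technical. In RNA from whole cultures, less RNA per cell and fewer cells that express a gene cannot be told apart.

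**Figure D2:**
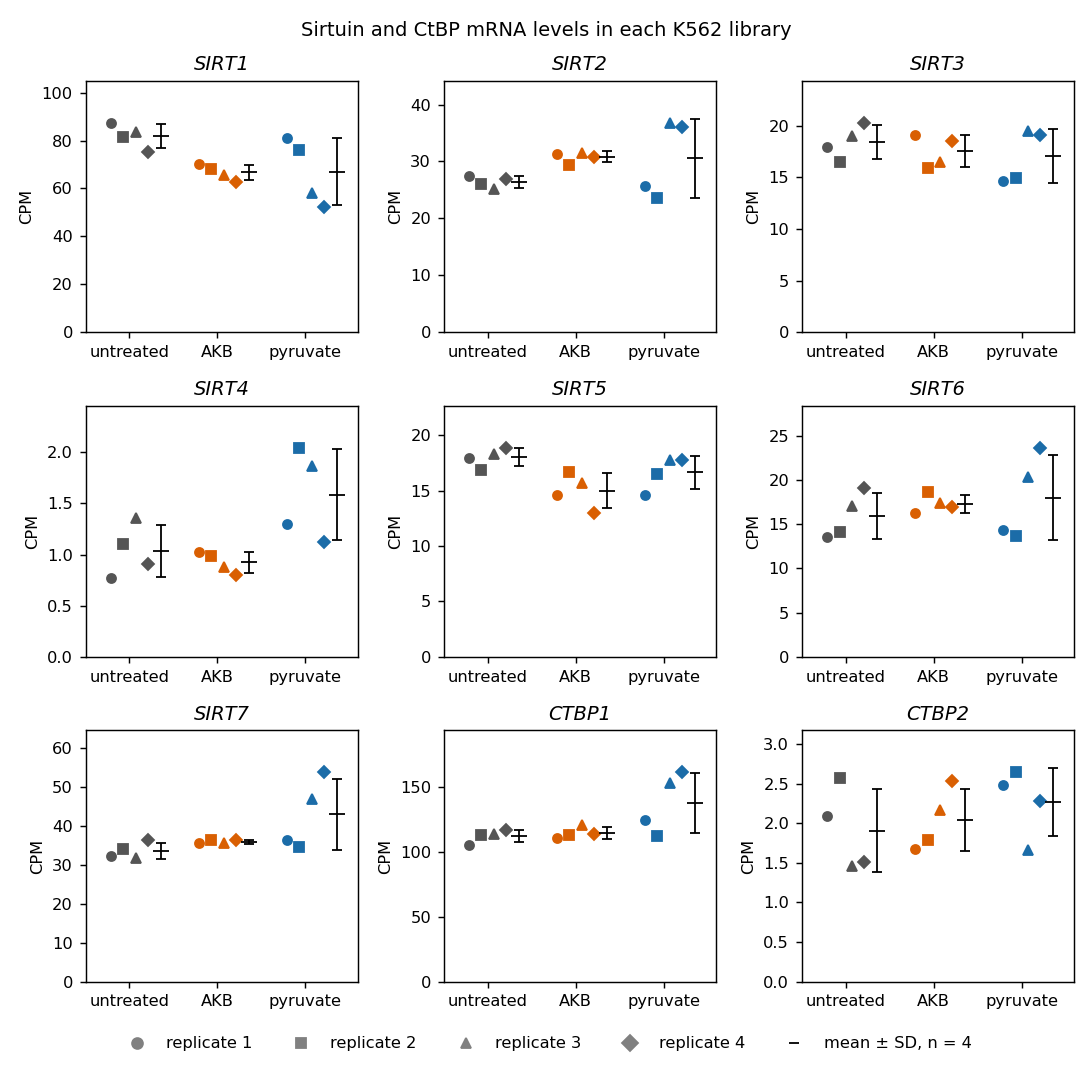
CPM of each gene in each library (y axis from 0, a panel per gene), with a marker shape per replicate number and the mean ± SD of 4 libraries in black. SIRT1 is lower in the 4 AKB libraries (62.6 to 70.3) than in the 4 untreated ones (75.0 to 87.3), and pyruvate replicates 3 and 4 lie apart from 1 and 2 for most genes.

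SIRT1, the nuclear deacetylase of histones and many transcription factors, had the most negative AKB estimate of the 9. Its untreated libraries held 87.3, 81.6, 83.5 and 75.0 CPM, and its AKB libraries held 70.3, 68.1, 65.6 and 62.6 CPM. The 4 AKB libraries all lay below the 4 untreated ones. The log2 fold change was -0.30 ± 0.12 (SE; 95% interval -0.56 to -0.03; adjusted p = 0.316, edgeR). With the GC offset it was -0.27 with an adjusted p of 0.0129, and without pyruvate replicates 3 and 4 it was -0.30 with an adjusted p of 0.00844 (edgeR). The estimate stayed between -0.34 and -0.26 over 23 alternatives, 4 of which called it, with adjusted p from 0.00552 to 0.562. The called fits are the GC offset with and without the replicate block, the 8 AKB and untreated libraries alone, and the fit without pyruvate replicates 3 and 4. Across all genes, 8.8% were called for AKB under the GC offset (7.27% with the block too), 10.1% with the 8 libraries alone and 9.17% without those replicates.

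In the pyruvate group SIRT1 measured 81.2, 76.2, 57.9 and 52.3 CPM. Replicates 1 and 2 lay within the untreated range and replicates 3 and 4 below every AKB library. The difference from untreated was -0.29 ± 0.12 in all libraries (SE; adjusted p = 0.147, edgeR), -0.13 with the GC offset and -0.06 without replicates 3 and 4. Leaving out pyruvate replicate 1 alone gave -0.39 with an adjusted p of 0.0352 (edgeR), in a fit that called 19.1% of all genes. SIRT1 transcripts have 40.5% GC, below 48% for the median gene.

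SIRT2, which deacetylates tubulin and other cytosolic proteins, was the second gene whose AKB and untreated libraries did not overlap. It measured 27.5, 26.1, 25.1 and 26.9 CPM in untreated cells and 31.4, 29.5, 31.6 and 30.8 CPM with AKB. Each AKB library was above each untreated one. The log2 fold change was 0.22 ± 0.13 (SE; adjusted p = 0.510, edgeR). It was 0.22 with an adjusted p of 0.0316 without pyruvate replicates 3 and 4, but 0.11 with an adjusted p of 0.337 under the GC offset (edgeR). SIRT2 transcripts have 60.1% GC. The AKB libraries had GC slopes of -0.11 to 0.00488 and the untreated ones -0.151 to -0.000852. With pyruvate SIRT2 measured 25.7 and 23.5 CPM in replicates 1 and 2 and 36.8 and 36.1 CPM in replicates 3 and 4, on either side of the AKB values. AKB against pyruvate gave 0.01 in all libraries, 0.16 with the GC offset (adjusted p = 0.106) and 0.32 without replicates 3 and 4 (adjusted p = 0.0297, edgeR), where 4.36% of all genes were called.

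SIRT5, which removes succinyl, malonyl and glutaryl groups in mitochondria, was the third gene with separated AKB and untreated libraries. Untreated libraries held 18.0, 16.9, 18.3 and 18.9 CPM and AKB libraries held 14.6, 16.7, 15.7 and 13.0 CPM. The highest AKB library lay just under the lowest untreated one. The log2 fold change was -0.27 ± 0.10 (SE; 95% interval -0.48 to -0.05; adjusted p = 0.244, edgeR). Adjusted p ranged from 0.0811 to 0.539 over 23 alternatives and none called it. The authors' deposited table gives a smaller difference for SIRT5, with untreated over AKB at a log2 fold change of 0.05 and an adjusted p of 0.942. Pyruvate libraries held 14.6, 16.5, 17.7 and 17.7 CPM and overlapped both other groups. Separation of all 4 libraries from all 4 was seen for 3 of 9 members with AKB, 0 with pyruvate and 1 between the acids, against 17.2%, 10.9% and 11.6% of all genes.

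SIRT3, the main mitochondrial deacetylase, was measured at 17.9, 16.5, 19.0 and 20.3 CPM in untreated cells and 14.7, 15.0, 19.4 and 19.1 CPM with pyruvate. Pyruvate replicates 1 and 2 were below all untreated libraries, and replicates 3 and 4 were among them. The log2 fold change was -0.11 ± 0.12 in all libraries (SE; adjusted p = 0.525, edgeR). With the GC offset it was -0.32 ± 0.09 (SE; adjusted p = 0.0401, edgeR), a fit that called 9.21% of all genes for pyruvate. Without replicates 3 and 4 it was -0.31 ± 0.11 (SE; adjusted p = 0.221, edgeR), where 0.71% of all genes were called. AKB libraries held 19.1, 15.9, 16.5 and 18.5 CPM and overlapped the untreated ones, with a difference of -0.07 in all libraries and -0.17 under the offset. SIRT3 overlaps PSMD13, a proteasome subunit gene on the other strand, by 386 bases at their starts. PSMD13 was at 191 ± 4.79 CPM in untreated cells and 202 ± 6.23 with pyruvate (SD, n = 4; adjusted p = 0.314, edgeR). The sources used here do not give whether counting used strand, so reads in the shared bases cannot be assigned to either gene.

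SIRT4 had the largest fold difference of the 9, at levels near 1 CPM. Untreated libraries held 0.772, 1.10, 1.36 and 0.905 CPM, AKB libraries 1.03, 0.988, 0.878 and 0.803 CPM, and pyruvate libraries 1.30, 2.04, 1.87 and 1.12 CPM. Every pyruvate library was above every AKB library, while both groups overlapped the untreated ones. Pyruvate against untreated gave a log2 fold change of 0.61 ± 0.26 (SE; 95% interval 0.05 to 1.17; adjusted p = 0.150, edgeR). With AKB the difference from untreated was -0.16 ± 0.27 (SE; adjusted p = 0.866, edgeR). AKB against pyruvate gave a log2 fold change of -0.77 ± 0.26 (SE; 95% interval -1.34 to -0.20; adjusted p = 0.107, edgeR). It was -0.75 with the GC offset and -0.85 without pyruvate replicates 3 and 4, and it was called in 0 of 23 alternatives (adjusted p 0.0624 to 0.254). The GC offset fit called 14.9% of all genes between the acids. SIRT4 transcripts have 51.3% GC, and its mean was 1.67 CPM in pyruvate replicates 1 and 2 and 1.49 CPM in replicates 3 and 4.

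SIRT7, a nucleolar sirtuin that acts on H3K18 acetylation and ribosomal DNA, followed the split within the pyruvate group. It measured 36.4, 34.6, 46.9 and 53.8 CPM with pyruvate, 32.3, 34.1, 31.6 and 36.2 CPM in untreated cells, and 35.5, 36.4, 35.5 and 36.4 CPM with AKB. Only pyruvate replicates 3 and 4 stood above the untreated range by more than 1 CPM. The pyruvate difference was 0.36 ± 0.12 in all libraries (SE; adjusted p = 0.101, edgeR), 0.17 with the GC offset and 0.08 without replicates 3 and 4. DESeq2's Wald test called it (adjusted p = 0.0423), as did edgeR without pyruvate replicate 1 (0.44, adjusted p = 0.0338) or without replicate 2 (0.44, adjusted p = 0.0239), where 19.1% and 26.1% of all genes were called. SIRT7 shares 3054 annotated bases with MAFG, a small MAF factor gene on the same strand, which was at 164 ± 4.71 CPM in untreated cells and 172 ± 19.3 with pyruvate (SD, n = 4). SIRT6, a chromatin deacetylase of H3K9 and H3K56, ranged from 13.5 to 19.1 CPM in untreated cells, 16.3 to 18.6 with AKB and 13.7 to 23.7 with pyruvate. Its groups overlapped in every comparison. The pyruvate estimate for SIRT6 changed sign, from 0.18 in all libraries to -0.17 with the GC offset, and its transcripts had the highest GC content of the 9, 64.9%.

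**Figure D3:**
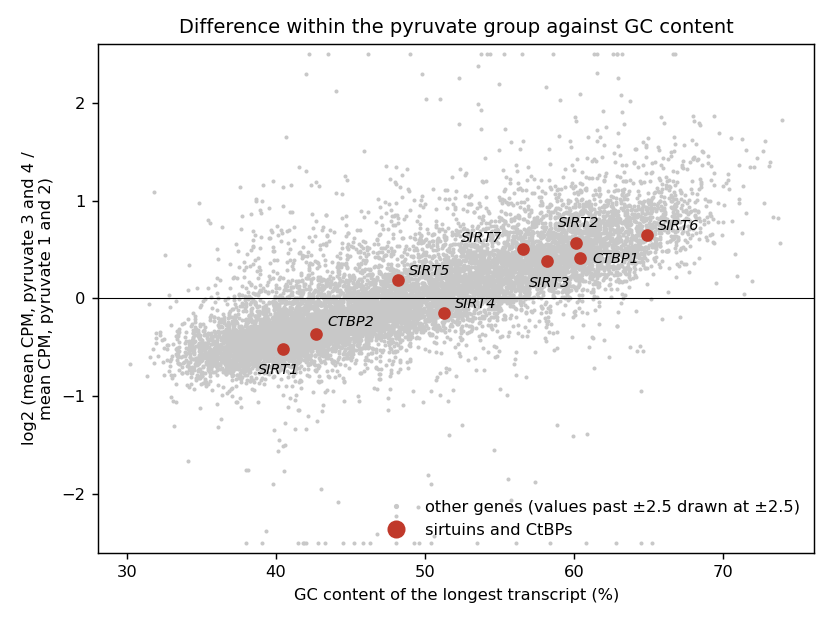
Log2 ratio of mean CPM in pyruvate replicates 3 and 4 to replicates 1 and 2 (y axis) against the GC content of the longest transcript in percent (x axis), for 12053 genes with a mean of at least 1 CPM in grey and the 9 genes in red. SIRT1 at 40.5% GC lies at -0.51 and SIRT6 at 64.9% GC lies at 0.65, along the slope of the grey points.

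The split within the pyruvate group ran along GC content for these genes as for the rest. The log2 ratio of replicates 3 and 4 to replicates 1 and 2 was -0.51 for SIRT1 and -0.36 for CTBP2, the AT-rich members. It was 0.38 for SIRT3, 0.41 for CTBP1, 0.50 for SIRT7, 0.56 for SIRT2 and 0.65 for SIRT6, whose transcripts have 56.5% to 64.9% GC. SIRT5 (48.2% GC) was at 0.19 and SIRT4 (51.3% GC) at -0.15, against the order of GC content. Across the 9 genes Pearson's r was 0.937 and Spearman's rho 0.90, and across 12053 genes they were 0.676 and 0.804. These describe genes that share the same 4 libraries. Genes are not independent replicates.

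CTBP1, the main CtBP message here, measured 106, 113, 114 and 117 CPM in untreated cells and 111, 113, 121 and 114 CPM with AKB. The groups overlapped, and the AKB difference of 0.03 ± 0.10 had a 95% interval of -0.19 to 0.25 (SE; adjusted p = 0.950, edgeR). With pyruvate CTBP1 measured 124 and 112 CPM in replicates 1 and 2 and 154 and 162 CPM in replicates 3 and 4. The pyruvate difference was 0.30 ± 0.10 (SE; adjusted p = 0.102, edgeR), 0.04 with the GC offset and 0.07 without replicates 3 and 4. DESeq2's Wald test called it (adjusted p = 0.0414), and edgeR called it without pyruvate replicate 1 (0.35, adjusted p = 0.0433) or without replicate 2 (0.38, adjusted p = 0.0214). Between AKB and pyruvate the difference was -0.27 (adjusted p = 0.138), and -0.35 without pyruvate replicate 2 (adjusted p = 0.0262, edgeR), where 15.3% of all genes were called. The authors' deposited table gives AKB over pyruvate for CTBP1 as -0.29 with an adjusted p of 0.0517.

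CTBP2, its paralogue, ranged from 1.46 to 2.57 CPM in untreated cells, 1.67 to 2.53 with AKB and 1.67 to 2.65 with pyruvate. All 3 groups overlapped. Its AKB difference was 0.10 ± 0.24 (SE; 95% interval -0.42 to 0.61) and its pyruvate difference 0.25 ± 0.23 (SE; -0.26 to 0.76), with 0.37 under the GC offset and 0.43 without pyruvate replicates 3 and 4. Differences anywhere within those intervals are compatible with these counts, and the bounds are not limits of detection. Without pyruvate replicates 3 and 4 the pyruvate interval was -0.18 to 1.03. The CTBP2 pseudogene CTBP2P10 is also listed, with 8 to 31 counts per library, and 4.85% of its stretches of 31 bases also occur in CTBP2 transcripts. ZRANB1, a deubiquitinase gene that overlaps CTBP2 on the other strand by 3873 bases, was at 4.66 ± 1.01 CPM in untreated cells (SD, n = 4).

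**Figure D4:**
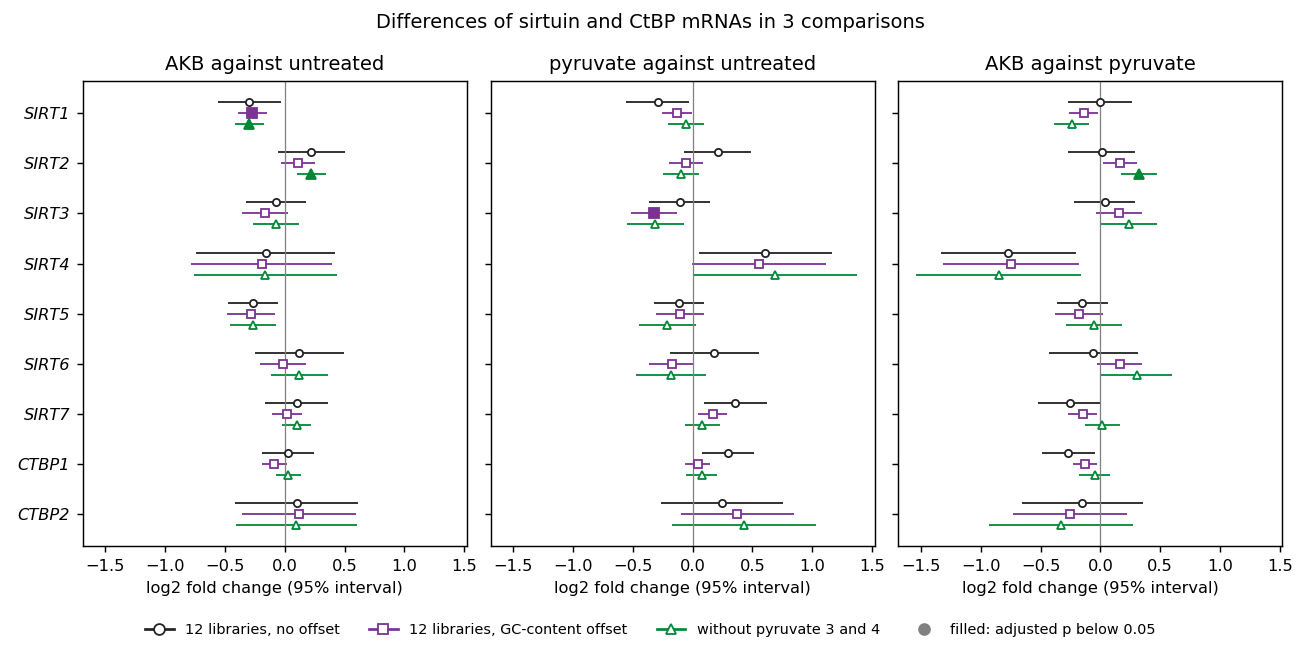
Log2 fold change of each gene with its 95% interval (x axis) in 3 comparisons, from the fit to all 12 libraries (circles), with a GC-content offset (squares) and without pyruvate replicates 3 and 4 (triangles). Filled symbols have an adjusted p below 0.05: SIRT1 and SIRT2 with AKB, SIRT3 with pyruvate and SIRT2 between AKB and pyruvate, each in only some of the fits.

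The 2 acids differed in structure by a methylene group and were compared at the same dose and time over 9 genes. No difference between them was called in all libraries, with intervals from -0.27 to 0.26 for SIRT1, -0.27 to 0.29 for SIRT2 and -0.49 to -0.05 for CTBP1. The difference for SIRT1 was called in 1 of 23 alternatives, the GC offset with the replicate block (-0.14, adjusted p = 0.0429, edgeR). Both acids were set against the same 4 untreated libraries, so their values for a gene are not independent. SIRT1 was at -0.30 with AKB and -0.29 with pyruvate in all libraries. With the GC offset SIRT1 was at -0.27 and -0.13, where the difference between the acids was -0.14 (adjusted p = 0.118, edgeR). Without pyruvate replicates 3 and 4 SIRT1 was at -0.30 with AKB and -0.06 with pyruvate. The difference between the acids was then -0.24, with an interval of -0.39 to -0.09, and was not called (adjusted p = 0.0682, edgeR).

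Genes that work with the sirtuins and CtBPs were taken from lists. Of 10 tested zinc histone deacetylases, 25 CtBP partners, 17 other NAD-consuming enzymes and 14 genes of NAD supply, 0 were called in each of the 3 comparisons by edgeR, against 1.97%, 1.95% and 3.13% of all genes. At an unadjusted p below 0.05 these counts were 0, 4, 1 and 2 with AKB (13.2% of all genes) and 0, 10, 5 and 4 with pyruvate (28.9%). With the GC offset, 2, 4, 2 and 1 were called with AKB (8.8% of all genes), and 0, 2, 4 and 1 with pyruvate (9.21%). The median log2 fold change with AKB was 0.03, -0.06, 0.04 and -0.00237 for those lists and 0.00609 over all genes. RCOR2, a scaffold of the CoREST complex that CtBP recruits, was at 3.37 ± 0.316 CPM in untreated cells, 6.15 ± 0.864 with AKB and 6.10 ± 1.85 with pyruvate (SD, n = 4). Its log2 fold changes of 0.86 and 0.86 missed the threshold (adjusted p = 0.0539 and 0.0521, edgeR), and under the GC offset they were 0.73 and 0.54 (adjusted p = 0.00504 and 0.0249). Without pyruvate replicates 3 and 4 the pyruvate value of RCOR2 was 0.44 (adjusted p = 0.278, edgeR). KLF3, an erythroid repressor that binds CtBP, had -0.21 with AKB and -0.32 with pyruvate (adjusted p = 0.337 and 0.0736, edgeR). With the GC offset KLF3 was called in both, at -0.19 and -0.17 (adjusted p = 0.0257 and 0.0388), and without pyruvate replicates 3 and 4 with AKB (adjusted p = 0.027). QPRT, which makes nicotinic acid mononucleotide from quinolinate, was at 122 ± 6.57 CPM in untreated cells and 157 ± 10.8 with AKB (SD, n = 4). Its log2 fold change of 0.37 had an adjusted p of 0.0606, and of 0.00321 at 0.28 under the GC offset (edgeR). PARP1, the main nuclear consumer of NAD+, was at 505 ± 14.6 CPM in untreated cells, 502 ± 15.6 with AKB and 565 ± 23.5 with pyruvate (SD, n = 4). Its pyruvate difference of 0.16 had an adjusted p of 0.0836, and of 0.0326 at 0.14 under the GC offset (edgeR).

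Of 10 tested genes reported as repressed by CtBP, 0 were higher and 1 lower with AKB, and 1 was higher and 1 lower with pyruvate, against 1.97% and 1.95% of all genes called in either direction. PMAIP1, which encodes the BH3-only protein NOXA and is also a known ATF4 target, fell from 31.5 ± 2.76 CPM to 19.6 ± 1.59 with AKB and 17.1 ± 3.03 with pyruvate (SD, n = 4). Its log2 fold changes were -0.69 and -0.88 (adjusted p = 0.0142 and 0.00489, edgeR). ATF4 itself fell with AKB (-0.50, adjusted p = 0.0023) and with pyruvate (-0.40, adjusted p = 0.0174, edgeR), as did ASNS (-0.90 and -1.19, adjusted p = 0.000914 and 9.58e-05). No link of the PMAIP1 difference to ATF4 or to CtBP was tested. The keratin gene KRT8 rose with pyruvate (0.67, adjusted p = 0.0404, edgeR), and by 0.37 without replicates 3 and 4 (adjusted p = 0.146). With the GC offset its rise was 0.49 (adjusted p = 0.00456, edgeR), where 9.21% of all genes were called. KRT18, its partner keratin, had 0.24 (adjusted p = 0.0954), and 0.08 with the GC offset (adjusted p = 0.214, edgeR).

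Among 18 regulators of sirtuins, 0 were called with AKB (1.97% of all genes) and 2 were lower with pyruvate (1.95% of all genes called in either direction). Between the acids 3 were higher and 0 lower with AKB (3.13% of all genes). With AKB 1 was higher and 1 lower under the GC offset (8.8% of all genes). Without pyruvate replicates 3 and 4, 2 were higher and 1 lower with AKB (9.17% of all genes). FOXO3, a factor that SIRT1 deacetylates and that is reported to act on the SIRT1 gene, fell from 54.2 ± 3.10 CPM to 39.8 ± 2.53 with pyruvate (-0.44, adjusted p = 0.00886, edgeR; SD, n = 4). With AKB it was at 49.9 ± 1.62 CPM (adjusted p = 0.498), and AKB exceeded pyruvate by 0.33 (adjusted p = 0.0291, edgeR). DYRK3, a kinase reported to phosphorylate SIRT1, fell by 0.28 with pyruvate (adjusted p = 0.0411), and its fall of 0.22 without pyruvate replicates 3 and 4 had an adjusted p of 0.0939 (edgeR). Under the GC offset DYRK3 was at -0.24 with pyruvate (adjusted p = 0.00536, edgeR), where 9.21% of all genes were called. PPARA, a fatty acid sensing receptor, was higher with AKB than with pyruvate (0.33, adjusted p = 0.0483, edgeR), and was not called without pyruvate replicates 3 and 4 (0.33, adjusted p = 0.0707). PPARA was called under the GC offset (0.30, adjusted p = 0.016, edgeR), where 14.9% of all genes were called between the acids. For AKB against untreated PPARA gave 0.28 in all libraries (adjusted p = 0.123, edgeR). It was called there under the GC offset (0.27, adjusted p = 0.0368) and without pyruvate replicates 3 and 4 (0.28, adjusted p = 0.0402, edgeR). In the list of 27 tested nuclear substrates and partners, FOXO3 alone was called with pyruvate (1.95% of all genes), and 0 genes with AKB (1.97%). Under the GC offset 0 were higher and 3 lower with AKB, where 8.8% of all genes were called. Without pyruvate replicates 3 and 4, 1 was higher and 3 were lower with AKB (9.17% of all genes). RRP8, which works with SIRT1 at ribosomal DNA, was lower with AKB than with pyruvate (-0.25, adjusted p = 0.0495, edgeR), and was not called without pyruvate replicates 3 and 4 (-0.18, adjusted p = 0.0943). The GC offset fit also called RRP8 between the acids (-0.30, adjusted p = 0.00885, edgeR). For AKB against untreated RRP8 gave -0.21 in all libraries (adjusted p = 0.120, edgeR). That difference was called under the GC offset (-0.23, adjusted p = 0.0406) and without pyruvate replicates 3 and 4 (-0.22, adjusted p = 0.015, edgeR).

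Calls were also made among substrates outside the nucleus. Of 28 tested mitochondrial substrates, 2 rose and 0 fell with AKB, where 1.97% of all genes were called. With pyruvate 1 rose and 0 fell (1.95% of all genes), and between the acids 0 were higher and 1 lower with AKB (3.13%). Under the GC offset 2 rose and 3 fell with AKB, where 8.8% of all genes were called. Without pyruvate replicates 3 and 4, 2 rose and 2 fell with AKB (9.17% of all genes). IDH2, the NADP-dependent isocitrate dehydrogenase that SIRT3 deacetylates, rose from 47.7 ± 2.25 CPM to 69.1 ± 3.02 with AKB (0.54, adjusted p = 0.00854, edgeR; SD, n = 4), and stood at 56.8 ± 7.14 with pyruvate (adjusted p = 0.101). ALDH2, mitochondrial aldehyde dehydrogenase, rose by 0.42 with AKB (adjusted p = 0.0371, edgeR).

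Of 17 tested cytosolic substrates, 3 rose and 0 fell with AKB, and 2 rose and 1 fell with pyruvate, against 1.97% and 1.95% of all genes called. Between the acids 3 were higher and 1 lower with AKB (3.13% of all genes): TUBA1A, ACSS2 and TUBA4A (0.33, adjusted p = 0.0135) were higher, and ENO1 (-0.23, adjusted p = 0.0369, edgeR) was lower. The pyruvate calls were PKM and the glycolytic enzyme GAPDH (0.32, adjusted p = 0.0406), which rose, and the alpha-tubulin TUBA1C (-0.26, adjusted p = 0.0407, edgeR), which fell. GAPDH transcripts have 58.8% GC, and its SD was 74.1 CPM in untreated cells and 234 with pyruvate (n = 4). Without pyruvate replicates 3 and 4 the only pyruvate call among the 17 was PKM (0.29, adjusted p = 0.0326, edgeR), where 0.71% of all genes were called. Under the GC offset 2 rose and 3 fell with pyruvate (9.21% of all genes called), PKM at 0.25 (adjusted p = 0.00941, edgeR). ENO1, GAPDH and TUBA1C were named after their values were seen. ACSS2, the acetyl-CoA synthetase that SIRT1 activates, rose from 98.6 ± 1.86 CPM to 132 ± 9.72 with AKB (0.42, adjusted p = 0.00917, edgeR; SD, n = 4). It was at 102 ± 7.21 CPM with pyruvate, and AKB exceeded pyruvate by 0.37 (adjusted p = 0.0194, edgeR). PKM encodes pyruvate kinase and rose with AKB (0.29, adjusted p = 0.0196) and with pyruvate (0.35, adjusted p = 0.0115, edgeR). TUBA1A, an alpha-tubulin of the kind that SIRT2 deacetylates, rose by 0.41 with AKB (adjusted p = 0.034) and was 0.71 higher with AKB than with pyruvate (adjusted p = 0.00314, edgeR). The median over the 17 genes was 0.09 with AKB and 0.07 with pyruvate, against 0.00609 and -0.00819 over all genes.

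Genes whose log2 CPM followed each member most closely over the 12 libraries were sought among 10016 genes with a mean of at least 5 CPM. COPG2 and TFB2M followed SIRT1 with r of 0.992 and 0.979, and ZSWIM8 and ZFP36 followed CTBP1 with r of 0.993 and 0.986. DVL2 and CYBA followed SIRT7 (0.988 and 0.983), PKLR and SNAI1 followed SIRT6 (0.971 and 0.954), and BRI3 and FBXL8 followed SIRT2 (0.963 and 0.949). Values were lower for SIRT5 with TLCD1 and MAIP1 (0.888 and 0.865) and for SIRT3 with IFT20 (0.816). SIRT4 had SAXO2 and BMS1 (0.842 and 0.840) and CTBP2 had FN1 and ZNF586 (0.820 and 0.806). These 2 members had only 13 to 37 and 25 to 49 counts per library. All r values here were picked among the highest of 10016 over 12 libraries, and the r reached without any relation was not computed. All points share the 12 libraries, 2 of which stand apart by GC content, and COPG2 and TFB2M have 44.5% and 41.9% GC. Of the genes annotated at a member's start, NFKBIB, an inhibitor of NF-kappa-B that overlaps SIRT2 by 163 bases on the other strand, was at 19.9 ± 2.05 CPM in untreated cells, 19.6 ± 1.46 with AKB and 30.4 ± 10.4 with pyruvate (SD, n = 4). It was not called in all libraries (AKB against pyruvate -0.63, adjusted p = 0.0854), and was called under the GC offset (-0.46, adjusted p = 0.00998, edgeR). SIRT2 gave 0.01 ± 0.13 (SE) in the same comparison.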

How the data were processed

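The authors deposited an estimated count per gene and library. The tools in the submitters' processing notes are Salmon 1.2.1, DESeq2 1.26.0 and R 3.6.3. Not given in the sources used here are the genome build, annotation and strand setting. Rounding to whole counts changed no value. Per the file headers, the authors' deposited tables hold a mean signal (baseMean), a log2 fold change and its standard error, a test statistic (a score), and p-values. Symbols matched 95.2% of identifiers. Promoter sequences are from RefSeq (GRCh38.p14), and overlaps, lengths and GC content from GENCODE on GRCh38.

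Genes were kept by filterByExpr (minimum count 10), scaled by TMM and tested by edgeR 4.0.16 quasi-likelihood on 12 libraries with 1 term per group, in R 4.3.3. Adjusted p-values are Benjamini-Hochberg over 13598 genes. limma 3.58.1 and DESeq2 1.42.0 were alternatives. The GC offset is a loess curve per library (span 0.3). Scripts were tested on simulated data. The 9 members had 13 to 3464 counts per library. The members and gene lists were chosen with earlier results of these data known. Named are all members, up to 4 genes per list with the smallest adjusted p, the 2 closest genes per member, annotated neighbours and ATF4, ASNS and PSAT1. Left out were the neighbours without a test. A few genes that this rule would name are not reported here.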

Additional observations from a re-analysis of the deposited data

How the results depend on the processing

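Of 621 member differences under the alternatives, 569 kept direction and side of the threshold, 18 passed it and 34 changed sign. Genes called numbered 268 for AKB, 265 for pyruvate and 426 between the acids. DESeq2's Wald test called 531, 1824 and 1527, the GC offset 1196 (546 higher and 650 lower, against 186 and 82), 1253 and 2029, and the 8 libraries of each contrast alone 1339, 16 and 6. Without pyruvate replicates 3 and 4 there were 1278 and 99 calls against untreated. Without a filter there were 152 for pyruvate and 214 between the acids. Leaving out 1 library gave 92 to 357, 32 to 3611 and 68 to 2111. The cause was not tested. Members called were 1, 1 and 0 under the GC offset, against 8.8%, 9.21% and 14.9% of all genes. With its 8 libraries alone 2 were called for AKB (10.1% of all genes). Without pyruvate replicates 3 and 4 there were 2 for AKB (9.17% of all genes) and 1 between the acids (4.36%). DESeq2 called 2 for pyruvate (15.8% of all genes). Leaving out 1 library gave 0 to 3 members for pyruvate and 0 to 1 between the acids. For pyruvate there were 3 without pyruvate replicate 1 (19.1% of all genes) and 2 without pyruvate replicate 2 (26.1%). The 1 between the acids was called without pyruvate replicate 2 (15.3% of all genes).

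Replicate numbers did not pair the samples: correlations ran from -0.0996 to 0.202 over 12 pairs, and 4 of the 12 correlated best with their own number. The replicate block called 158 genes for AKB and 565 for pyruvate. With the GC offset too it called 988, 1443 and 2038 genes and 1, 1 and 1 members.

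Of the 34 estimates that changed sign, none was called. With the GC offset, SIRT6 gave -0.0138 for AKB (-0.0152 with the block), -0.1748 for pyruvate (-0.1768) and 0.161 between the acids (0.1615), CTBP1 gave -0.0863 for AKB (-0.0864), and SIRT2 gave -0.0539 for pyruvate (-0.051). Without pyruvate replicates 3 and 4, SIRT2 gave -0.1005 and SIRT6 -0.182 for pyruvate, and SIRT6 0.3015 and SIRT7 0.0164 between the acids. Between the acids, SIRT1 gave 0.0177 by library size alone, 0.0232 by limma-voom and 0.0124 with the replicate block, and SIRT2 gave -0.0083 with DESeq2's size factors, -0.0071 by DESeq2 and -0.0143 with its 8 libraries alone. Leaving out 1 library spanned -0.0182 to 0.2712 for CTBP2 with AKB, and between the acids -0.1177 to 0.0962 for SIRT1, -0.0935 to 0.094 for SIRT2, -0.0387 to 0.0864 for SIRT3 and -0.1703 to 0.0808 for SIRT6. SIRT4 and CTBP2, with the fewest counts, had the largest standard errors in the fit to all 12 libraries.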

Other observations

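Member differences in the authors' deposited tables were set beside those from the counts. Of 27 differences, 5 had the opposite sign to edgeR: SIRT7 and CTBP1 with AKB, SIRT5 and SIRT6 with pyruvate, and SIRT6 between the acids. For SIRT6 with pyruvate the authors' deposited table gives a log2 fold change of 0.11 for untreated over pyruvate, that is lower with pyruvate, while edgeR on the counts gave 0.18 higher. The gap between the authors' values and DESeq2 run on the counts reached 0.36, for CTBP2 with pyruvate. The tables were made with settings not given in the sources used here, and their part in these gaps was not tested. SIRT1 with AKB was lower in both, with untreated over AKB at 0.26 in the authors' deposited table.

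In each of 27 sets of 4 libraries, 1 per gene and group, no library lay apart from the rest of its group by Dixon's criterion. The pyruvate libraries fell 2 and 2 for most genes, a pattern that this criterion does not pick up.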
